A study of Capra hircus with 6 samples.

Results

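The unfolded protein and integrated stress response was followed through 41 member genes, taken from the deposited table by gene symbol, out of 16599 genes with values. Of these members, 22 were placed in the arm of the transcription factor ATF4, which includes EIF2AK3, upstream of ATF4, and the constitutive PPP1R15B. The other 19 were placed in the arm of the endoplasmic reticulum (ER), that of ATF6 and XBP1. The study measured RNA in a goat (Capra hircus) line, mGSCs-I-SB, labelled as spermatogonial stem cells and grown in DMEM/F12 with fetal bovine serum and antibiotics. There were 6 RNA-seq libraries in 3 lines of 2 libraries each. The shCON line has the genotype label WT, shUCHL1 carries a knockdown of UCHL1, a ubiquitin hydrolase, and shHSPA8 a knockdown of HSPA8, the constitutive cytosolic HSP70 chaperone. All 3 lines derive from the same cells, and by its name shCON also received a hairpin. The labels do not say how many hairpin sequences were used, whether a line is 1 clone, or if its 2 libraries are from separate cultures, so p-values measure only the spread between libraries, which may be technical.

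Cells answer protein folding stress in the ER through the sensors PERK (EIF2AK3), IRE1 (ERN1) and ATF6. PERK and the other eIF2 alpha kinases, which respond to amino acid shortage, viral RNA or lack of heme, phosphorylate eIF2 alpha, which lowers general protein synthesis while ATF4 is translated, and ATF4 induces genes of amino acid supply, feedback and cell death. IRE1 splices the XBP1 message and ATF6 is cleaved in the Golgi, and the factors they release induce ER chaperones and the machinery that degrades misfolded proteins. Gene-level RNA counts read neither phosphorylation, cleavage, splicing nor translation.

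The libraries held 15710532 to 16417274 counts each. Levels are given as CPM, the counts after bringing each library to the same scaled total, and a gene was called changed where its adjusted p from the quasi-likelihood test of edgeR, adjusted by the Benjamini-Hochberg method over the 12665 genes tested, was under 0.05. UCHL1 stood at 405.4 and 451.1 CPM in shCON, 94.3 and 97.7 in shUCHL1, and 385.7 and 334.1 in shHSPA8, and fell by 2.16 (SE 0.11) on the log2 scale in shUCHL1 (edgeR adjusted p = 0.000113). HSPA8 stood at 4016 and 4112 CPM in shCON, 5252 and 5345 in shUCHL1, and 2631 and 2528 in shHSPA8, and fell by 0.66 on the log2 scale in the last line (SE 0.07, edgeR adjusted p = 0.00126). HSPA8 rose by 0.38 (SE 0.07) in shUCHL1 (edgeR adjusted p = 0.0129, but 0.15 and 0.175 without either shUCHL1 library and 0.0549 with the replicate number as a block in the fit). Of 20 listed germ cell markers, 11 had values. The germ cell gene DDX4 lay between 0.429 and 1.96 CPM and the GDNF receptor GFRA1 was at 1.08 CPM at most. The labelled cell type was thus not seen in these 2 markers, while ETV5 lay between 9.99 and 13.3 CPM. Of the 9 tested, ID4 and RET rose and THY1 and UCHL1 fell in shUCHL1, and ID4 rose in shHSPA8. These were 44.4% and 11.1% called, against 15.7% and 14.7% of all genes. UCHL1, the targeted gene, is counted among the 9, and its fall in shUCHL1 was set by the knockdown. UCHL1, THY1 and ITGA6, which other cells also express, made up most of the summed level of the list. Among 6 Sertoli cell markers tested, GATA4 was at 94.6 and 112.1 CPM in shCON and AMH at 1.26 CPM at most. Of those 6, 3 fell in shUCHL1 and 2 in shHSPA8 (50% and 33.3% called). All 11 peritubular myoid cell and fibroblast markers had values, with a summed level of 23780 and 25360 CPM in shCON, 28690 and 29370 in shUCHL1, and 35020 and 34790 in shHSPA8, sums carried by the collagens COL1A1, COL1A2 and COL3A1. Its members moved both ways in shUCHL1, where 3 rose, among them COL3A1 (log2 0.79), and 4 muscle genes fell, ACTA2 (log2 -1.58), TAGLN (log2 -1.38), CNN1 (log2 -3.88) and DES (log2 -3.85, edgeR adjusted p from 0.000398 to 0.00108 for the 4), while 4 rose and none fell in shHSPA8. Of this list, 63.6% were called in shUCHL1 and 36.4% in shHSPA8, against 15.7% and 14.7% of all genes. This list moved with the lines, and its part in the results was not tested. In bulk RNA, fewer cells of a type and less RNA per cell cannot be told apart. The shCON libraries differed from each other more than the others did: over genes, the chi-square per degree of freedom between the 2 libraries of a line was 21.8 in shCON, 2.38 in shUCHL1 and 11.8 in shHSPA8.

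Per transcript length (deposited FPKM, mean of the 2 shCON libraries), the ER arm held the most abundant members. CALR, the calcium-binding lectin chaperone calreticulin, stood at 1154 FPKM in shCON, followed by the disulfide isomerase PDIA3 at 805.3, the secreted stress factor MANF at 529.1 and ATF4 at 366.3 FPKM. At the low end were the sensor ERN1 at 3.31 FPKM, the lipoprotein receptor VLDLR at 1.53 and the glutathione-degrading enzyme CHAC1 at 1.07 FPKM. DERL3, a derlin of ER-associated degradation, gave 4, 4 and 2 counts in the 2 libraries of shCON, shUCHL1 and shHSPA8 and was the 1 member below the count filter. The other 40 members were tested.

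In shUCHL1 against shCON, 14 of the 22 ATF4 arm members rose (63.6%) and the other 8 were not called. Among all genes tested, 15.7% were called in this comparison, 8.54% higher and 7.15% lower. The members were chosen with earlier results of these data known, so such shares are set side by side and not tested. With scaling to library size alone, the share of called genes that were higher went from 54.5% to 68.1%. The median log2 fold change of the arm was 0.67, against 0.01 for all genes. The 8 members not called ran from -0.16 to 0.46 on the log2 scale, with MTHFD2 and SHMT2 below 0. Over both arms, 31 of the 40 tested members had both shUCHL1 libraries above both shCON libraries and 2 had them below, while 56.5% of all genes were separate in either direction.

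In shHSPA8 against shCON, 9 of the 22 ATF4 arm members rose and 1 fell (45.5% called), with 14.7% of all genes called, 8.66% higher and 6.02% lower. The median of the arm was 0.13, against -0.00317 for all genes. Over both arms, 18 of the 40 members had both shHSPA8 libraries above shCON and 7 below, against 51% of all genes separate in either direction. The 2 knockdown comparisons share the shCON libraries, so the members called in both (8 in this arm: ASNS, CEBPB, DDIT4, NUPR1, PHGDH, PSAT1, PSPH and VLDLR) are listed side by side and not taken as independent of each other. Called higher in shUCHL1 but not in shHSPA8 were CHAC1, DDIT3, PPP1R15A, SESN2, STC2 and TRIB3. Called in shHSPA8 but not in shUCHL1 were ATF5, which rose, and ATF3, which fell.

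**Figure D1:**
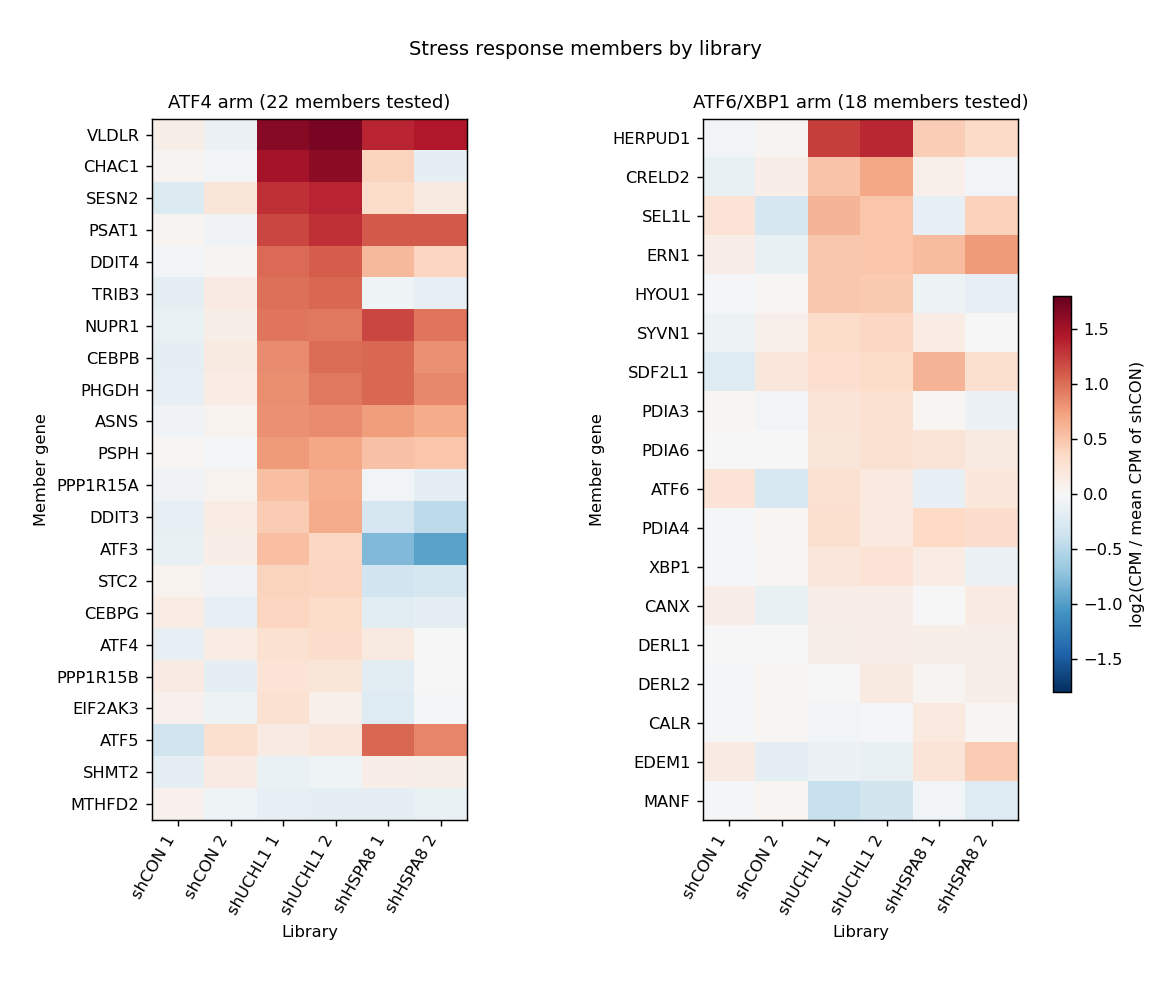
Each cell is a member's level in 1 library as log2 of its CPM over the mean CPM of the 2 shCON libraries (colour scale), with the 22 tested members of the ATF4 arm on the left and the 18 of the ATF6/XBP1 arm on the right, ordered by their fold change in shUCHL1. Both shUCHL1 libraries are red for VLDLR, CHAC1 and SESN2, the shHSPA8 libraries are red for VLDLR and PSAT1 and blue for ATF3, and most ER arm members stay pale.

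The upstream members of the ATF4 arm gave small differences. EIF2AK3, which encodes PERK, was at 71.6 and 63.9 CPM in shCON, 82.3 and 71.9 in shUCHL1, and 57.9 and 66.9 in shHSPA8. The shUCHL1 libraries lay just above those of shCON and the shHSPA8 libraries overlapped them, with log2 fold changes of 0.19 (SE 0.12, edgeR adjusted p = 0.362) and -0.12 (SE 0.12, adjusted p = 0.577). ATF4 itself was at 392.6 and 476.7 CPM in shCON, 523.5 and 539.7 in shUCHL1, and 486.1 and 432.1 in shHSPA8. Its shUCHL1 libraries were the highest of the 6, and the log2 fold change of 0.29 (SE 0.11) did not pass the threshold (edgeR adjusted p = 0.136), although it did without shCON replicate 2 (adjusted p = 0.0279) and with a correction for transcript length (adjusted p = 0.0074). In shHSPA8 the difference in ATF4 from shCON was 0.08 (SE 0.11, edgeR adjusted p = 0.698).

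Among the other transcription factors of the arm, the lines fell into different patterns. CEBPB, a leucine zipper factor that pairs with ATF4, was at 48.6 and 61.5 CPM in shCON, 99.2 and 110.7 in shUCHL1, and 112.6 and 96.9 in shHSPA8. It rose by 0.93 (SE 0.14) in each knockdown line (edgeR adjusted p = 0.00616 and 0.00579), and the knockdown libraries overlapped each other. NUPR1, a small stress-induced regulator of transcription, was at 9.50 and 11.1 CPM in shCON, 20.2 and 20.02 in shUCHL1, and 23.7 and 20.2 in shHSPA8, and rose by 0.96 (SE 0.14, edgeR adjusted p = 0.00521) and 1.09 (SE 0.14, adjusted p = 0.00284). In shUCHL1 the call for CEBPB was lost without shUCHL1 replicate 2 (adjusted p = 0.0661), and that for NUPR1 without either shUCHL1 library (adjusted p = 0.0527 and 0.0546).

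DDIT3, which encodes the pro-apoptotic factor CHOP, was at 26.1 and 31.95 CPM in shCON, 39.7 and 46.0 in shUCHL1, and 23.5 and 20.9 in shHSPA8. All 3 lines were separate, shUCHL1 above shCON and shHSPA8 below it. DDIT3 rose by 0.56 (SE 0.14) in shUCHL1 (edgeR adjusted p = 0.0376), a call that was lost without any 1 library except shCON replicate 2 (adjusted p between 0.0512 and 0.295), with limma's voom (0.0544) and with a replicate block (0.073). In shHSPA8 the log2 fold change of DDIT3 was -0.39 (SE 0.14, edgeR adjusted p = 0.127, and 0.043 without shCON replicate 1).

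ATF3, a stress-induced repressor downstream of ATF4, was at 17.1 and 20.3 CPM in shCON, 27.2 and 24.3 in shUCHL1, and 10.8 and 9.63 in shHSPA8. The order of the lines was that of DDIT3, with no overlap. ATF3 fell by 0.88 (SE 0.14) on the log2 scale in shHSPA8 (edgeR adjusted p = 0.00775, and 0.0542 without shHSPA8 replicate 2). Its log2 fold change in shUCHL1 was 0.46 (SE 0.14), which missed the threshold (edgeR adjusted p = 0.0621, and 0.0354 without shCON replicate 2).

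ATF5, a factor of the mitochondrial stress response, had means of 7.01 ± 2.21 CPM in shCON, 7.90 ± 0.194 in shUCHL1 and 13.6 ± 0.959 in shHSPA8 (SD, n = 2). It rose by 0.95 (SE 0.21) in shHSPA8 (edgeR adjusted p = 0.0239), and this call was lost without any 1 of the 4 knockdown libraries (adjusted p from 0.0578 to 0.101) and with the 2 lines compared alone (0.0585). CEBPG, a partner of ATF4 in inducing amino acid genes, had means of 84.6 ± 11.2 CPM in shCON, 109 ± 2.39 in shUCHL1 and 74.6 ± 1.82 in shHSPA8 (SD, n = 2), and was called in neither comparison with shCON (edgeR adjusted p = 0.0724 in shUCHL1, 0.0166 without shCON replicate 1, and 0.332 in shHSPA8).

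The feedback and effector genes of the ATF4 arm were mostly called in shUCHL1 and not in shHSPA8. Of these 8 members, with the constitutive PPP1R15B among them, 7 rose in shUCHL1, by 0.39 to 1.68 on the log2 scale (87.5% called, against 15.7% of all genes). In shHSPA8, 2 of the 8 rose (25% called, against 14.7% of all genes). CHAC1 was at 3.48 and 3.24 CPM in shCON, 9.47 and 10.3 in shUCHL1, and 4.43 and 2.97 in shHSPA8, from 108, 327 and 116 counts in the 2 libraries of each line. The shHSPA8 libraries lay on either side of shCON, while CHAC1 rose 2.94-fold in shUCHL1 (log2 1.55, SE 0.20, edgeR adjusted p = 0.00344). SESN2, a sestrin that restrains mTORC1 when amino acids are short, was at 10.1 and 13.96 CPM in shCON, 30.0 and 31.1 in shUCHL1, and 15.2 and 13.5 in shHSPA8. The shHSPA8 libraries of SESN2 overlapped shCON, and the shUCHL1 libraries stood clear of both, with a rise of 1.34 (SE 0.16, edgeR adjusted p = 0.00266), against 0.25 (SE 0.17, adjusted p = 0.389) in shHSPA8. TRIB3, a pseudokinase that dampens ATF4 and AKT signalling, was at 20.5 and 25.6 CPM in shCON, 45.9 and 47.3 in shUCHL1, and 21.9 and 20.8 in shHSPA8. The shHSPA8 libraries fell inside the range of shCON, and TRIB3 rose 2.02-fold in shUCHL1 (log2 1.02, SE 0.13, edgeR adjusted p = 0.00297).

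VLDLR and DDIT4 were the feedback and effector members called in both knockdown lines. VLDLR, a lipoprotein receptor induced by ATF4, was at 10.9 and 9.43 CPM in shCON, 31.7 and 33.4 in shUCHL1, and 26.4 and 27.7 in shHSPA8. It rose 3.19-fold in shUCHL1 (log2 1.68, SE 0.12, edgeR adjusted p = 0.000355) and 2.65-fold in shHSPA8 (log2 1.41, SE 0.12, adjusted p = 0.000495), the largest rise of any member in both comparisons. DDIT4, an inhibitor of mTORC1 also known as REDD1, was at 29.8 and 31.8 CPM in shCON, 62.6 and 65.6 in shUCHL1, and 46.2 and 40.2 in shHSPA8. The shHSPA8 libraries were intermediate: DDIT4 rose by 1.06 (SE 0.11, edgeR adjusted p = 0.00129) in shUCHL1 and by 0.49 (SE 0.11, adjusted p = 0.0268) in shHSPA8. The call in shHSPA8 was lost without shCON replicate 1, shHSPA8 replicate 1 or either shUCHL1 library (edgeR adjusted p from 0.0647 to 0.161), with voom (0.0726), with a replicate block (0.0807) and with the 2 lines compared alone (0.0925).

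PPP1R15A, the stress-induced subunit of the phosphatase that removes phosphate from eIF2 alpha, was at 29.5 and 32.1 CPM in shCON, 44.7 and 48.7 in shUCHL1, and 29.7 and 27.6 in shHSPA8. It rose by 0.60 (SE 0.11) in shUCHL1 (edgeR adjusted p = 0.0109, and 0.0845 and 0.144 without either shUCHL1 library) and overlapped shCON in shHSPA8. Its constitutive counterpart PPP1R15B was at 145 ± 21.4 CPM in shCON, 171 ± 1.63 in shUCHL1 and 136 ± 12 in shHSPA8 (SD, n = 2) and was not called against shCON in either line (edgeR adjusted p = 0.259 in shUCHL1, 0.0496 without shCON replicate 1, and 0.65 in shHSPA8). STC2, a secreted glycoprotein of the stress response, was at 39.1 and 36.1 CPM in shCON, 49.6 and 49.2 in shUCHL1, and 29.7 and 30.1 in shHSPA8, with no overlap between the lines. It rose by 0.39 (SE 0.10) in shUCHL1 (edgeR adjusted p = 0.034), a call lost in 9 of 14 alternatives. These were the fits without any 1 library except shCON replicate 1 (adjusted p between 0.0644 and 0.275), no filter on low counts (0.05023), DESeq2 (0.0883), a replicate block (0.105) and the 2 lines compared alone (0.0612). In shHSPA8 the log2 fold change of STC2 was -0.33 (SE 0.10, edgeR adjusted p = 0.0652, and 0.0408 without shCON replicate 2).

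**Figure D2:**
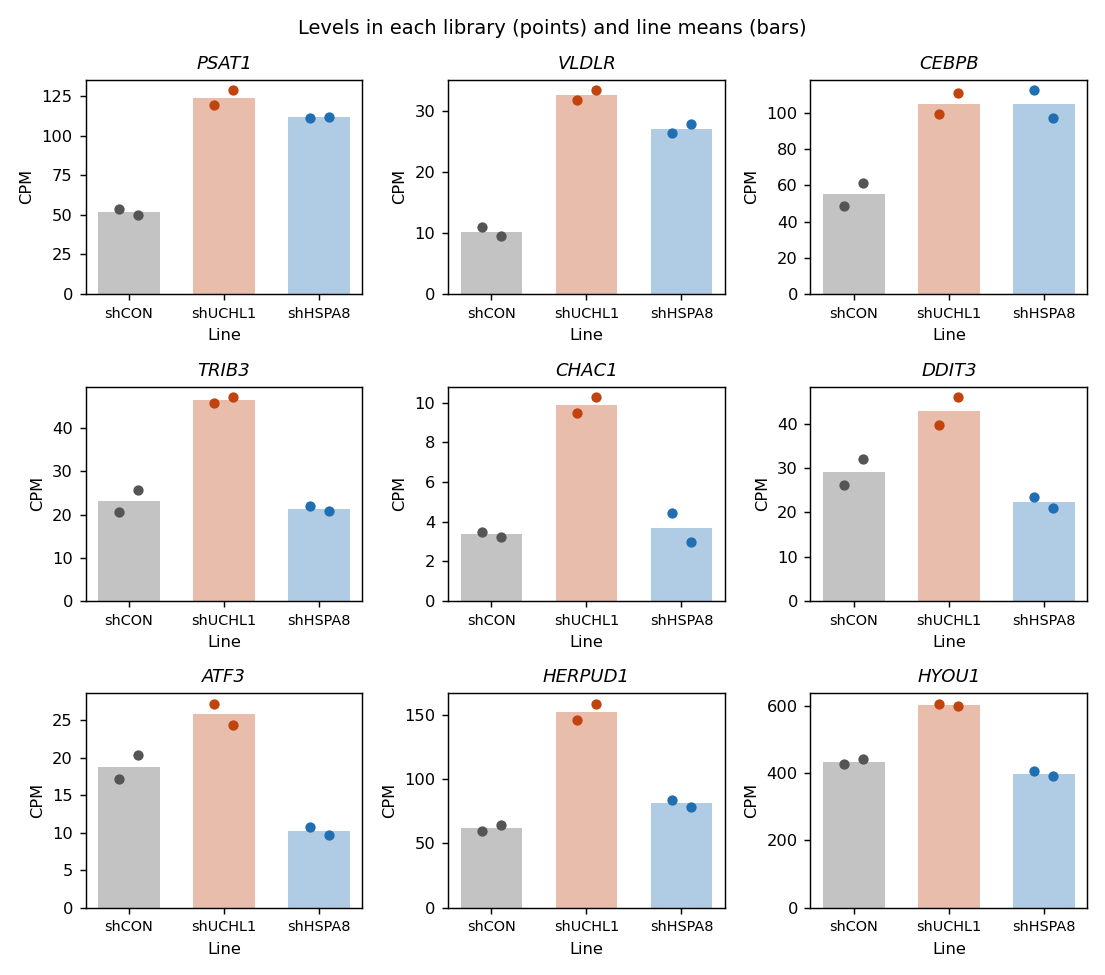
CPM of 9 members in each library (points, 2 a line) with the mean of the line (bars, axis from 0). PSAT1, VLDLR and CEBPB stand above shCON in both knockdown lines, TRIB3, CHAC1 and HYOU1 in shUCHL1, HERPUD1 highest in shUCHL1 with shHSPA8 in between, and DDIT3 and ATF3 lie above shCON in shUCHL1 and below it in shHSPA8.

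Of the 6 amino acid and one-carbon enzymes of the arm, 4 rose in each knockdown line, the 3 enzymes of serine synthesis and asparagine synthetase. That is 66.7% called in each, against 15.7% of all genes in shUCHL1 and 14.7% in shHSPA8. PSAT1, the serine synthesis transaminase, was at 53.9 and 49.9 CPM in shCON, 119.1 and 128.8 in shUCHL1, and 111.4 and 111.6 in shHSPA8. Both knockdown lines were well above shCON, with rises of 1.26 (SE 0.09, edgeR adjusted p = 0.000377) and 1.10 (SE 0.09, adjusted p = 0.000458). PHGDH, which catalyses the first step of serine synthesis, was at 89.0 and 107.9 CPM in shCON, 175.2 and 190.8 in shUCHL1, and 200.5 and 179.1 in shHSPA8, rising by 0.89 (SE 0.12, edgeR adjusted p = 0.00378) and 0.95 (SE 0.12, adjusted p = 0.00265). The knockdown libraries overlapped each other for PHGDH, and its call in shUCHL1 sat at the threshold without shUCHL1 replicate 2 (edgeR adjusted p = 0.05).

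PSPH, the phosphatase of the last step of serine synthesis, was at 26.0 and 25.1 CPM in shCON, 43.6 and 41.6 in shUCHL1, and 36.9 and 36.2 in shHSPA8. It rose by 0.74 (SE 0.10, edgeR adjusted p = 0.00348, and 0.0613 without shUCHL1 replicate 1) and by 0.52 (SE 0.10, adjusted p = 0.0134, from 0.062 to 0.0806 without any 1 of the 4 knockdown libraries, 0.0511 with a replicate block and 0.0613 with the 2 lines compared alone). ASNS, which makes asparagine, was at 46.4 and 50.6 CPM in shCON, 86.1 and 87.8 in shUCHL1, and 81.7 and 76.7 in shHSPA8, and rose by 0.84 (SE 0.09, edgeR adjusted p = 0.00189) and 0.71 (SE 0.09, adjusted p = 0.00327). The mitochondrial one-carbon enzymes MTHFD2 and SHMT2, also induced by ATF4 in many cells, were not called. MTHFD2 had means of 98.5 ± 7.24, 88.4 ± 0.877 and 89.2 ± 2.55 CPM in shCON, shUCHL1 and shHSPA8, and SHMT2 had 109 ± 17, 102 ± 2.32 and 118 ± 0.977 CPM (SD, n = 2). The edgeR adjusted p of MTHFD2 and SHMT2 against shCON ran from 0.324 to 0.644.

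**Figure D3:**
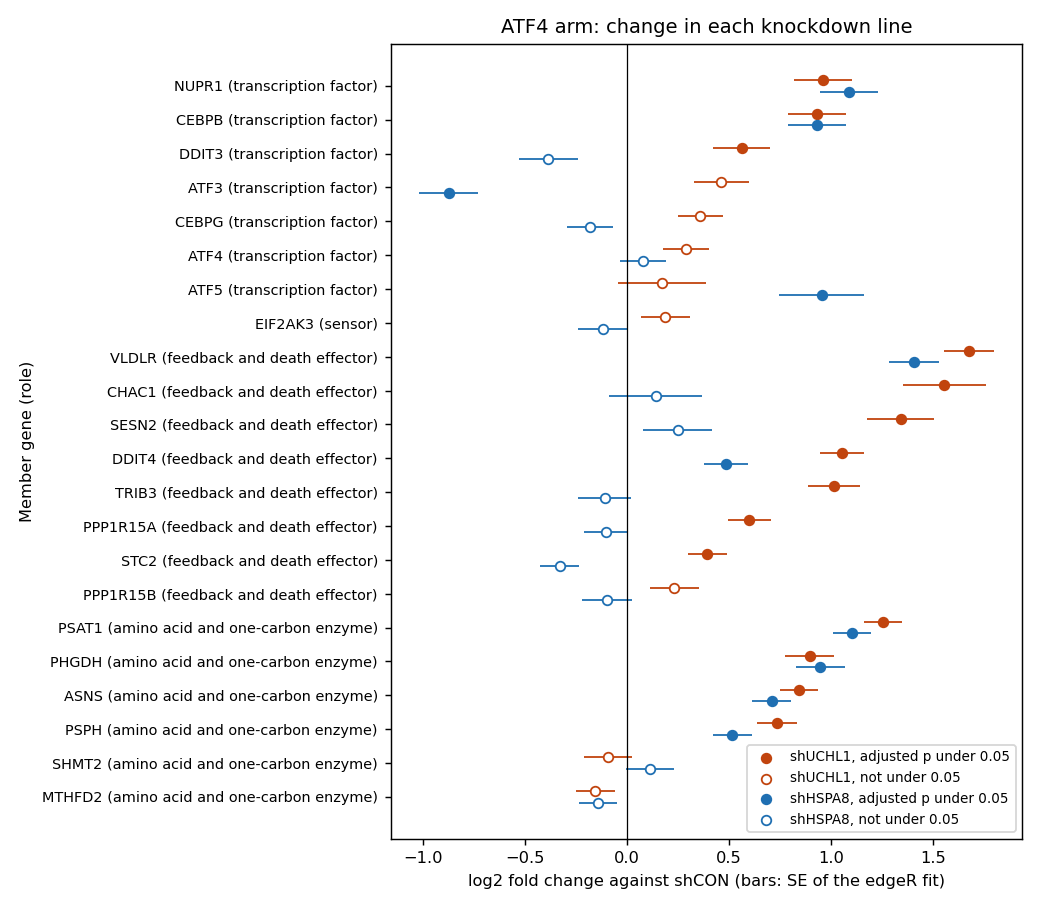
Log2 fold change against shCON of the 22 ATF4 arm members in shUCHL1 (orange) and shHSPA8 (blue), grouped by role, with bars for the SE of the edgeR fit and filled points where the adjusted p was under 0.05. The 2 lines lie close together for the enzymes and apart for CHAC1, SESN2, TRIB3, DDIT3 and ATF3.

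Taken from a list of other genes of the ATF4 pathway, 43 in all with 41 tested, 7 rose and 3 fell in shUCHL1 (24.4% called, against 15.7% of all genes) and 2 rose and 3 fell in shHSPA8 (12.2%, below the 14.7% of all genes). The list of the other eIF2 alpha kinases, eIF2 and eIF2B held 12 genes, with GCN1 counted among them. Their edgeR adjusted p ran from 0.121 to 0.917 in shUCHL1 and from 0.0778 to 0.998 in shHSPA8. Of 12 aminoacyl-tRNA synthetases, 1 rose in each line. That was the seryl-tRNA synthetase SARS in shUCHL1 (log2 0.39, SE 0.10, edgeR adjusted p = 0.0346) and the glutamyl-prolyl-tRNA synthetase EPRS in shHSPA8 (log2 0.56, SE 0.10, adjusted p = 0.00912). The call of SARS was lost in 7 of 14 alternatives (adjusted p from 0.0521 to 0.291), among them those without shCON replicate 1 or any 1 knockdown library, and that of EPRS without shHSPA8 replicate 2 (edgeR adjusted p = 0.0529).

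A list of amino acid carriers and enzymes outside the members, which also holds the pro-apoptotic BBC3, the cytokine GDF15 and the translation repressor EIF4EBP1, moved both ways. Of 17 tested, 6 rose and 3 fell in shUCHL1 (52.9% called, against 15.7% of all genes), and 1 rose and 3 fell in shHSPA8 (23.5%, against 14.7%). The 6 that rose were BBC3 (log2 1.16, edgeR adjusted p = 0.033), the carriers SLC7A11, SLC3A2, SLC1A5 and SLC6A9, and the folate enzyme ALDH1L2. SLC7A11, the cystine carrier, was at 4.56 and 2.57 CPM in shCON, 17.4 and 12.9 in shUCHL1, and 4.17 and 10.1 in shHSPA8. The shHSPA8 libraries were wide apart, and SLC7A11 rose by 2.09 (SE 0.42) in shUCHL1 (edgeR adjusted p = 0.0178). That call was lost without shCON replicate 2 or either shUCHL1 library (edgeR adjusted p from 0.0518 to 0.103). CBS, which starts the conversion of homocysteine to cysteine, was at 122.5 and 124.0 CPM in shCON, 63.2 and 64.9 in shUCHL1, and 70.7 and 66.9 in shHSPA8. Its fall of 0.94 on the log2 scale in shUCHL1 (SE 0.09, edgeR adjusted p = 0.000887) and of 0.84 in shHSPA8 (SE 0.09, adjusted p = 0.00105) kept its call under every alternative run.

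Fewer members were called in the ER arm. In shUCHL1, 4 of its 18 tested members rose and 1 fell (27.8% called, against 15.7% of all genes), with a median log2 fold change of 0.24. In shHSPA8, 3 rose and 15 were not called (16.7% called, against 14.7% of all genes), with a median of 0.09. The share in shHSPA8 is near that of all genes. ERN1 and HERPUD1 rose in both lines, CRELD2 and HYOU1 rose and MANF fell in shUCHL1, and PDIA4 rose in shHSPA8.

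Of the ER sensors and their factor XBP1, ERN1 was called. ERN1, the gene of IRE1, was at 27.9 and 23.5 CPM in shCON, 35.9 and 36.3 in shUCHL1, and 38.2 and 43.6 in shHSPA8, both knockdown lines above shCON. It rose by 0.49 (SE 0.12, edgeR adjusted p = 0.0396) in shUCHL1, a call lost without any 1 library except shCON replicate 1 (adjusted p between 0.053 and 0.234), with no filter on low counts (0.053), with a replicate block (0.0982) and with the 2 lines compared alone (0.0518). It rose by 0.67 (SE 0.12, adjusted p = 0.0128) in shHSPA8, a call lost without shHSPA8 replicate 2 (adjusted p = 0.0797). ATF6 was at 95.9 and 66.1 CPM in shCON, 98.3 and 91.8 in shUCHL1, and 73.1 and 92.6 in shHSPA8. All 3 lines overlapped for ATF6, and the shCON libraries alone spanned most of the range (edgeR adjusted p = 0.474 and 0.931). XBP1 was at 114.2 and 118.0 CPM in shCON, 133.9 and 138.3 in shUCHL1, and 127.4 and 108.4 in shHSPA8. The shUCHL1 libraries of XBP1 lay above the others, and its log2 fold change of 0.23 (SE 0.10) did not pass (edgeR adjusted p = 0.191, and 0.0426 with the correction for transcript length).

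Among 9 chaperones and disulfide isomerases of the arm, 2 rose and 1 fell in shUCHL1, where 15.7% of all genes were called, and 1 rose in shHSPA8, a share below the 14.7% of all genes. HYOU1, a large HSP70-like chaperone that exchanges nucleotide on BiP, was at 425.9 and 440.7 CPM in shCON, 606.3 and 599.2 in shUCHL1, and 405.0 and 390.4 in shHSPA8. It rose by 0.48 (SE 0.07) in shUCHL1 (edgeR adjusted p = 0.00671, and 0.114 and 0.104 without either shUCHL1 library) and lay slightly under shCON in shHSPA8 (log2 -0.12, SE 0.07, adjusted p = 0.321). CRELD2, a disulfide isomerase-like protein of the ER, was at 33.1 and 39.8 CPM in shCON, 52.2 and 58.9 in shUCHL1, and 38.9 and 35.2 in shHSPA8. The shHSPA8 libraries lay within shCON, and CRELD2 rose by 0.61 (SE 0.13) in shUCHL1 (edgeR adjusted p = 0.0201, and 0.0968 and 0.194 without either shUCHL1 library).

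MANF, usually induced together with these chaperones, went the other way. It was at 316.8 and 332.9 CPM in shCON, 246.1 and 258.6 in shUCHL1, and 313.5 and 277.2 in shHSPA8, and the shUCHL1 libraries were the lowest of the 6. MANF fell by 0.36 on the log2 scale in shUCHL1 (SE 0.09, edgeR adjusted p = 0.0373). The call was lost with scaling to library size alone (adjusted p = 0.0889), with a replicate block (0.109) and without shCON replicate 2 or either shUCHL1 library (edgeR adjusted p from 0.0703 to 0.295).

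The disulfide isomerases of the PDI family, which form and shuffle disulfide bonds in the ER, gave small differences. PDIA4 was at 375.8 and 397.9 CPM in shCON, 472.4 and 435.7 in shUCHL1, and 495.9 and 482.4 in shHSPA8. It rose by 0.34 (SE 0.08) in shHSPA8 (edgeR adjusted p = 0.0348), a call lost in 9 of 14 alternatives. These were the fits without any 1 library except shCON replicate 2 (adjusted p between 0.0698 and 0.171), DESeq2 (0.0577), voom (0.0937), a replicate block (0.112) and the 2 lines compared alone (0.121). PDIA3 was at 1101 and 1039 CPM in shCON, 1254 and 1296 in shUCHL1, and 1096 and 995.4 in shHSPA8 (log2 0.25, SE 0.08, edgeR adjusted p = 0.0848 in shUCHL1). PDIA6 was at 573.4 and 567.9 CPM in shCON, 664.1 and 689.1 in shUCHL1, and 667.6 and 640.3 in shHSPA8 (log2 0.25, SE 0.07, edgeR adjusted p = 0.067 in shUCHL1). Both PDIA3 and PDIA6 stood above shCON in the 2 shUCHL1 libraries without passing the threshold, and both passed it with scaling to library size alone (edgeR adjusted p = 0.0386 and 0.0297).

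CALR was at 1874 and 1962 CPM in shCON, 1845 and 1893 in shUCHL1, and 2158 and 1973 in shHSPA8, and its shUCHL1 libraries overlapped shCON (edgeR adjusted p = 0.804 and 0.43). SDF2L1, a small partner of ER J-domain proteins, was at 18.2 and 24.6 CPM in shCON, 26.5 and 26.9 in shUCHL1, and 32.6 and 26.1 in shHSPA8, with shCON lowest (edgeR adjusted p = 0.279 and 0.133, the latter 0.0284 without shCON replicate 2). CANX, the membrane-bound relative of CALR, had means of 796.5 ± 99.1, 862.1 ± 0.0915 and 838.2 ± 66.2 CPM in shCON, shUCHL1 and shHSPA8 (SD, n = 2), a spread in shCON wider than the differences.

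In ER-associated degradation, HERPUD1 stood apart from the other 5 tested members in size. HERPUD1, a membrane protein that helps assemble the HRD1 ubiquitin ligase complex, was at 59.5 and 64.0 CPM in shCON, 145.8 and 158.9 in shUCHL1, and 84.1 and 78.6 in shHSPA8. All 3 lines were separate, with shHSPA8 in between. It rose 2.47-fold in shUCHL1 (log2 1.30, SE 0.10, edgeR adjusted p = 0.000377) and 1.32-fold in shHSPA8 (log2 0.40, SE 0.10, adjusted p = 0.0367), the latter call being lost without any 1 library except shCON replicate 2 (adjusted p between 0.0874 and 0.19), with voom (0.106), with a replicate block (0.107) and with the 2 lines compared alone (0.12). SYVN1, the HRD1 ligase, was at 30.7 and 34.7 CPM in shCON, 41.1 and 42.5 in shUCHL1, and 36.0 and 32.6 in shHSPA8 (log2 0.35, SE 0.11, edgeR adjusted p = 0.0749 in shUCHL1, and 0.0492 without shCON replicate 2). Its adaptor SEL1L was at 72.9 and 49.8 CPM in shCON, 93.4 and 87.1 in shUCHL1, and 55.2 and 82.0 in shHSPA8. The shCON and shHSPA8 libraries of SEL1L were far apart from their own replicates, and the log2 fold change of 0.56 in shUCHL1 had an SE of 0.23 (edgeR adjusted p = 0.152, and 0.0374 without shCON replicate 1).

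EDEM1, which extracts misfolded glycoproteins from the folding cycle, was at 132.3 and 105.5 CPM in shCON, 110.5 and 108.5 in shUCHL1, and 139.0 and 162.8 in shHSPA8. The shUCHL1 libraries fell within shCON and the shHSPA8 libraries above it (log2 0.34, SE 0.13, edgeR adjusted p = 0.135, and 0.0326 without shCON replicate 1). The derlins DERL1 and DERL2 gave log2 fold changes from 0.07 to 0.11 against shCON (edgeR adjusted p from 0.41 to 0.677).

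**Figure D4:**
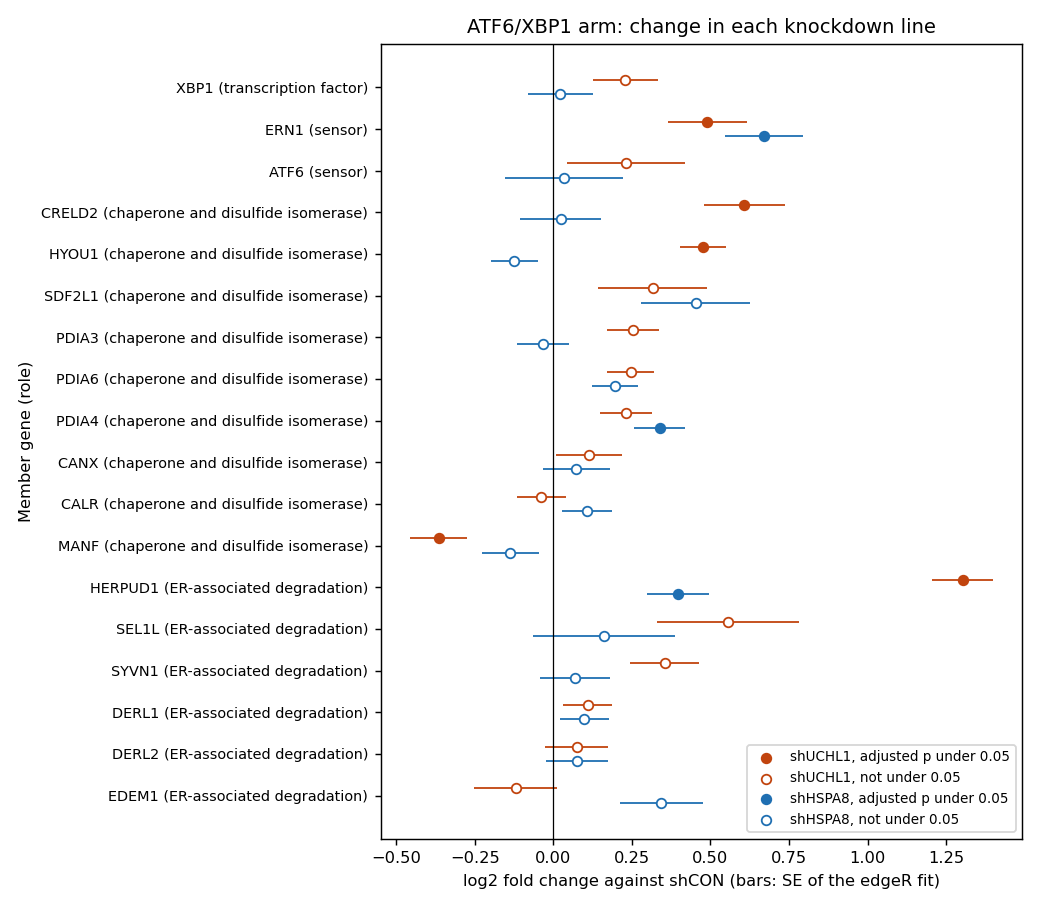
Log2 fold change against shCON of the 18 tested ATF6/XBP1 arm members in shUCHL1 (orange) and shHSPA8 (blue), grouped by role, with bars for the SE of the edgeR fit and filled points where the adjusted p was under 0.05. HERPUD1 at 1.30 in shUCHL1 lies far right of the other members, and MANF is the filled point left of 0.

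Among 49 other genes of the ER pathway, all tested, 5 rose and 3 fell in shUCHL1 (16.3% called, against 15.7% of all genes) and 5 rose and 1 fell in shHSPA8 (12.2%, against 14.7%), shares near and below those of all genes. HSPA5, the ER HSP70 chaperone BiP, was at 1332 and 1274 CPM in shCON, 2129 and 2203 in shUCHL1, and 1184 and 1163 in shHSPA8. The shUCHL1 libraries were well above and the shHSPA8 libraries slightly below shCON, with a rise of 0.73 (SE 0.07, edgeR adjusted p = 0.00113) in shUCHL1 and a difference of -0.15 (SE 0.07, adjusted p = 0.222) in shHSPA8. HSP90B1, the ER HSP90 chaperone, was at 2036 and 1855 CPM in shCON, 2323 and 2390 in shUCHL1, and 2206 and 2162 in shHSPA8, which was not called against shCON (edgeR adjusted p = 0.0553 in shUCHL1, 0.0221 without shCON replicate 1, and 0.211 in shHSPA8). DNAJB9, an XBP1-induced J-domain partner of BiP, was at 12.5 and 12.1 CPM in shCON, 22.7 and 24.2 in shUCHL1, and 17.1 and 18.1 in shHSPA8. It rose by 0.93 (SE 0.11, edgeR adjusted p = 0.0027) and by 0.52 (SE 0.12, adjusted p = 0.0271, and from 0.0616 to 0.141 in the 8 alternatives that ended this call, which leave out any 1 of the 4 knockdown libraries among them). HSPA5, HYOU1 and CRELD2 shared shUCHL1 as the highest line, with shHSPA8 below shCON for HSPA5 and HYOU1 and overlapping it for CRELD2.

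Compared directly, shUCHL1 was higher than shHSPA8 for 9 of the 22 ATF4 arm members and lower for 1 (45.5% called), and higher for 3 of the 18 ER arm members (16.7%), with 14.6% of all genes called, 6.2% higher and 8.35% lower. The medians were 0.29 and 0.04, against 0.02 for all genes. Scaling to library size alone raised the median of all genes by 0.10 and the share of called genes that were higher from 42.6% to 64.4%. Of the 8 feedback and effector members, 6 were higher in shUCHL1 (CHAC1, DDIT4, PPP1R15A, SESN2, STC2 and TRIB3), by 0.57 to 1.42 on the log2 scale. Over both arms, 24 of the 40 members had both shUCHL1 libraries above both shHSPA8 libraries and 8 below, against 65.7% of all genes separate in either direction. CHAC1 differed by 1.42 (SE 0.20, edgeR adjusted p = 0.00587), TRIB3 by 1.13 (SE 0.13, adjusted p = 0.00269) and SESN2 by 1.09 (SE 0.16, adjusted p = 0.00674). The 6 enzymes differed by -0.21 to 0.22 on the log2 scale (edgeR adjusted p from 0.168 to 0.939), and PHGDH by -0.05 (SE 0.12).

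Of the transcription factors that were higher in shUCHL1 than in shHSPA8, ATF3 gave the largest difference, 1.34 on the log2 scale (SE 0.14, edgeR adjusted p = 0.00221), followed by DDIT3 at 0.95 (SE 0.14, adjusted p = 0.00709) and CEBPG at 0.54 (SE 0.11, adjusted p = 0.021). ATF5 was the member that was lower in shUCHL1, by a log2 difference of -0.78 (SE 0.21, edgeR adjusted p = 0.0454, 0.0668 with scaling to library size alone and 0.0814 with a replicate block). The SE of the CEBPB difference was 0.14, wider than the difference itself (edgeR adjusted p = 0.993). In the ER arm, HERPUD1 was higher by 0.91 (SE 0.10, edgeR adjusted p = 0.00226), HYOU1 by 0.60 (SE 0.07, adjusted p = 0.00375) and CRELD2 by 0.58 (SE 0.13, adjusted p = 0.0258), and so was HSPA5 outside the members, by 0.88 (SE 0.07, adjusted p = 0.000876). Leaving out 1 library moved these counts. Fewer ATF4 arm members were called without any 1 of the 4 libraries compared, and fewer of all genes tested as well. The calls of ATF3, TRIB3 and HERPUD1 were kept in each of these fits, while those of CHAC1, SESN2, STC2 and HYOU1 were lost without either shUCHL1 library (edgeR adjusted p from 0.0501 to 0.0731), DDIT3 without shUCHL1 replicate 2 (0.0812), DDIT4 and PPP1R15A without either shUCHL1 library or shHSPA8 replicate 2 (0.0515 to 0.161), and ATF5, CEBPG and CRELD2 without any 1 of the 4 libraries compared (0.0816 to 0.257). A replicate block also ended the calls of DDIT4 (0.0519), CEBPG (0.0569) and CRELD2 (0.063). In the ER arm, as among all genes, fewer were called without either shUCHL1 library and more without either shCON library. In the latter fits PDIA3 (log2 0.281 and 0.284) and EDEM1 (log2 -0.468 and -0.465) passed too. PPP1R15B, of the ATF4 arm, also passed without either shCON library (edgeR adjusted p = 0.0331 and 0.0328).

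**Figure D5:**
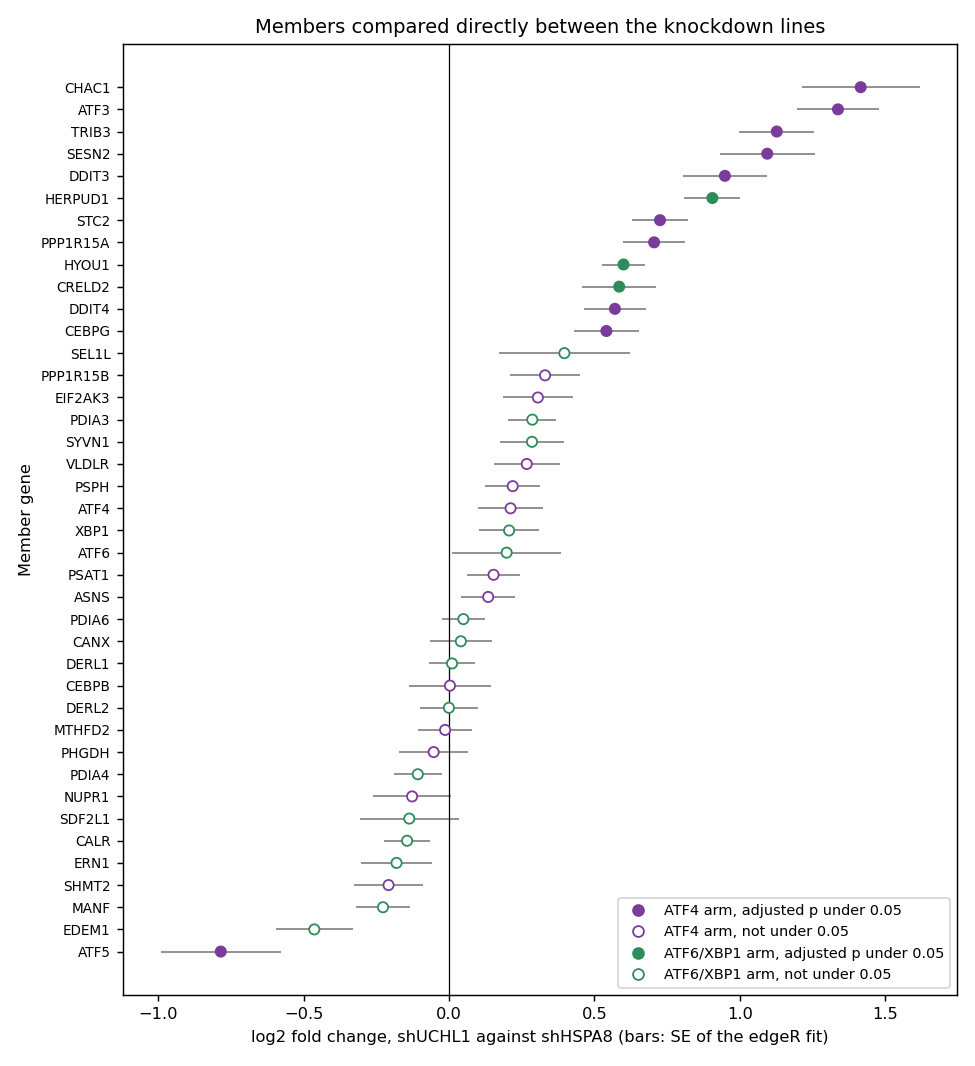
Log2 fold change of shUCHL1 against shHSPA8 for the 40 tested members, ordered by size, with bars for the SE of the edgeR fit, purple for the ATF4 arm, green for the ATF6/XBP1 arm and filled points where the adjusted p was under 0.05. CHAC1 and ATF3 are highest at 1.42 and 1.34, and ATF5 is the filled point below 0.

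The counts against shCON rested on the shUCHL1 and shHSPA8 libraries to different degrees. Without shUCHL1 replicate 1 or replicate 2, fewer members of both arms were called in shUCHL1, and fewer of all genes tested as well. The log2 fold change of HYOU1 was then 0.46 and 0.47, against 0.48 with all libraries. That of DDIT3 was 0.65 and 0.43, against 0.56. In shHSPA8, fewer members of both arms, and fewer of all genes, were called without any 1 knockdown library. Without shHSPA8 replicate 2, the calls of ERN1, HERPUD1 and PDIA4 in shHSPA8 were all lost (edgeR adjusted p from 0.0797 to 0.126). The members called in shUCHL1 under all 14 alternatives were DDIT4, TRIB3, CHAC1, SESN2, ASNS, PSAT1, VLDLR and HERPUD1, and in shHSPA8 ASNS, PSAT1, PHGDH, VLDLR, NUPR1 and CEBPB.

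Of the members, 6 overlap another gene with values in the goat annotation (ATF5 with NUP62, DDIT3 with MARS, SHMT2 with NDUFA4L2, PDIA3 with CATSPER2, PDIA6 with ATP6V1C2 and SYVN1 with MRPL49), and whether the counting used strand is not given in the sources used here, so their values are less certain. For the called members ATF5 and DDIT3, the partners had edgeR adjusted p against shCON in shUCHL1 and shHSPA8 of 0.989 and 0.689 (NUP62) and of 0.973 and 0.9 (MARS). In the authors' deposited table, the 19, 13 and 13 members called here in the 3 comparisons all had the same sign and a p under 0.05, and in all 22, 13 and 20 of the 40 members were under that p.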

How the data were processed

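RNA-seq libraries of 3 lines, 2 each, were compared. The submitters' processing notes name Trimmomatic 0.36, a read trimmer. Not given in the sources used here are the aligner, the counter, the build and the strand setting. The deposited table holds the authors' estimated counts (expected counts, of which 1014 to 1117 a library are not whole), their FPKM, and their log2 ratios and p-values for each comparison. Of its 33229 entries, 16630 are blank and were not used. All 41 members matched by symbol in the table and in the RefSeq gene table of the assembly ARS1.2, which served for names. Its gene coordinates served for the overlaps, and no sequences were used. Counts were rounded and tested with edgeR 4.0.16 (R 4.3.3), filterByExpr and TMM scaling, over all 6 libraries, with the line as the only term, a two-sided quasi-likelihood test and Benjamini-Hochberg adjustment over all genes tested, threshold 0.05. CPM use TMM-scaled totals; FPKM served for levels between genes and transcript lengths. The procedure was tested on simulated data. There, 26 of 67 genes changed 1.5-fold in shUCHL1 were recovered, 57 of 67 at 2-fold and 65 of 66 at 4-fold. Of 12026 unchanged genes, 12 were called. A member that was not called may therefore still have changed. The simulated lines shared 1 spread for each gene, unlike the lines here, so these rates may not hold for the data. The members and lists were chosen with earlier results of these data known. All members may be named; values of all 6 libraries are given for EIF2AK3, ERN1, ATF6, XBP1, ATF4, DDIT3 and up to 14 and 12 other members of the arms with the smallest p, and from other pathway lists HSPA5, HSP90B1 and up to 3 called genes a list and direction. Alternatives were relative log expression or library size scaling, no low-count filter, DESeq2 1.42.0, limma 3.58.1 voom with group weights, only the 2 lines compared, a replicate block, a transcript length correction (lowess span 0.3), and leaving out each library, where a lone library is assumed to vary like the other lines. For genes of the other pathway lists the same alternatives were chosen after seeing the data.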

Additional observations from a re-analysis of the deposited data

How the results depend on the processing

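No called member changed direction under any alternative. The numbers of called genes and members moved by over 1.5 times as follows. With a replicate block, 1230, 1131 and 923 genes were called in shUCHL1 against shCON, shHSPA8 against shCON and shUCHL1 against shHSPA8, in place of 1987, 1859 and 1843, and 3 and 1 ER arm members in the first pair, in place of 5 and 3. Replicate numbers were not taken to pair libraries, since deviations of same-numbered libraries correlated at r = 0.234 (shCON and shUCHL1), -0.537 (shCON and shHSPA8) and -0.225 (shUCHL1 and shHSPA8). At r = -0.537, shCON and shHSPA8 libraries of opposite number shared deviations. A block on equal numbers cannot take these up and leaves less to estimate the spread from. A call lost with the block therefore does not tell how such shared deviations bear on it. With voom, 1132 and 3456 genes were called in shHSPA8 and in the direct comparison, and 1 and 6 ER arm members. With the 2 lines compared alone these were 1104 and 3116 genes and 1 and 5 members. The length correction gave 2880 genes in the direct comparison and 9, 6 and 5 ER arm members in the 3 comparisons. Without any 1 library, the lowest and highest counts were 528 and 2615, 920 and 2416, and 257 and 3083 genes, 8 and 15, 7 and 11, and 2 and 11 ATF4 arm members, and 1 and 6, 0 and 4, and 1 and 5 ER arm members. Those fits hold fewer libraries, and for the other alternatives the cause was not tested. Of the 19, 13 and 13 member calls, 8, 6 and 3 were kept in all 14 alternatives and 15, 8 and 9 in the 8 that leave out no single library. Members not called in a comparison that passed in it with at least 1 of those 8 alternatives were ATF3, ATF4, CEBPG, XBP1, SDF2L1, PDIA3, PDIA6 and SYVN1 in shUCHL1, DDIT3, STC2, SDF2L1, PDIA6 and EDEM1 in shHSPA8, and ATF4, PPP1R15B, PDIA3, EDEM1 and SYVN1 in the direct comparison. The SE differed between members: CHAC1, with 108 to 327 counts a line, had 0.20 in shUCHL1, against 0.07 for the more abundant HYOU1. SEL1L, with 1965 to 2982 counts a line and shCON libraries far apart, had 0.23. The smallest called change of a member was 1.26-fold (PDIA4 in shHSPA8).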
